A study of Mus musculus with 4 samples.

Results

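The regions described here were accessible in early mouse forelimb buds taken with adjoining trunk tissue. They were absent from the list of the following stage and lay far from any protein-coding gene start. They were chosen by measured values. An autosomal region of the E9.5 list was taken when it shared no base with any region of the E10.5 list and when its centre lay at least 100 kb from the nearest protein-coding transcription start. This rule gave 2323 E9.5-only desert regions among the 42613 regions of the E9.5 list and the 89378 regions of both lists. They made up 18.5% of the 12589 autosomal regions of the E9.5 list that shared no base with the E10.5 list.

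Accessible chromatin had been profiled by ATAC-seq, in which a transposase inserts sequencing adapters into open DNA, in wild-type NMRI mouse embryos at a pair of stages, E9.5 and E10.5. Each stage had 2 biological replicates, each made from the pair of forelimb buds of 1 embryo, and the authors merged them into 1 list of regions per stage. The sample titles say E9.5, whereas the protocol gives 9.75 as the embryonic day. The E9.5 samples kept the adjoining trunk tissue and no trunk is named for E10.5, so stage and trunk cannot be told apart in any comparison here. The tissue label at E10.5 also names hindlimb buds, while the source and protocol name forelimb buds only. Both stages had the same genotype and no treatment, and no marker of a cell type could be checked, since the lists hold positions and scores but no expression.

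Gene deserts are long stretches of the genome without protein-coding genes. Many of them flank genes of developmental regulators and hold enhancers, short stretches of DNA that bind transcription factors and act on a gene from afar. An enhancer in use is usually depleted of nucleosomes, which is why it appears as an accessible region. The limb bud grows out of the lateral plate mesoderm beside the somites, and its accessible enhancers change as it is patterned along its axes.

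The sequences below show the central bases of 7 E9.5-only desert regions, read from the plus strand of NCBIM37 (mm9). The first is the highest-scoring region of the interval that held the most of them, and the Wwox region comes from another crowded interval. The Btbd3 region had the highest score of all 2323. The Spred2, Lcorl and Plxna2 regions were 3 high-scoring ones, with scores of 1195.18, 612.8 and 589.32. They carried both of the short motifs that were more frequent in the class than in other desert regions. In these 6 sequences, capitals mark AGATAA or its reverse complement TTATCT, a core bound by GATA factors, and AGGTCA or TGACCT, a site bound by nuclear receptors.
Member nearest Zfp36l1, chr12:81012224-81012424: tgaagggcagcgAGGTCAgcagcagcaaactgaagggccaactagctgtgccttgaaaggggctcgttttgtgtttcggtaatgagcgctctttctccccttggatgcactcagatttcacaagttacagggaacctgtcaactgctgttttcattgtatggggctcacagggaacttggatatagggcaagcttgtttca
Member nearest Wwox, chr8:117530593-117530793: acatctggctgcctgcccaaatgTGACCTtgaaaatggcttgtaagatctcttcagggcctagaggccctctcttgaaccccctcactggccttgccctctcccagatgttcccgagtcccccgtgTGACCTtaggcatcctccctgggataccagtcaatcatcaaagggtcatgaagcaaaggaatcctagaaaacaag
Member nearest Btbd3, chr2:137531649-137531849: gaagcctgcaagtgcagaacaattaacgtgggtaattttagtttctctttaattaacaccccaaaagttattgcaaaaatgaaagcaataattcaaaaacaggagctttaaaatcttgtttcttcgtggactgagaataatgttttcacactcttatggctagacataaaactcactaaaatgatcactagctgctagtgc
Member nearest Spred2, chr11:19431588-19431887: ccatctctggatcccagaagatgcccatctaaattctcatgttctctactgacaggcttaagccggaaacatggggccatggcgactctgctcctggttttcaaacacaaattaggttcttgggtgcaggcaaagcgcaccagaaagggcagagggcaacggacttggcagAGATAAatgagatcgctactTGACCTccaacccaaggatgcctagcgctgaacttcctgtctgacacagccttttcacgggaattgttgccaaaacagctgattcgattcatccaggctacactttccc
Member nearest Lcorl, chr5:47222191-47222490: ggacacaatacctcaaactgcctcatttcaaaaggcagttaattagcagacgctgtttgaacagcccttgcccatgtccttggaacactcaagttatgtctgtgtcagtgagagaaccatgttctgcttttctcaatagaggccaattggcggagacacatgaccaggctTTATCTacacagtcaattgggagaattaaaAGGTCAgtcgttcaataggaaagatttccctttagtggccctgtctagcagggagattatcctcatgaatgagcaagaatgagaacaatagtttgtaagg
Member nearest Plxna2, chr1:196180729-196181028: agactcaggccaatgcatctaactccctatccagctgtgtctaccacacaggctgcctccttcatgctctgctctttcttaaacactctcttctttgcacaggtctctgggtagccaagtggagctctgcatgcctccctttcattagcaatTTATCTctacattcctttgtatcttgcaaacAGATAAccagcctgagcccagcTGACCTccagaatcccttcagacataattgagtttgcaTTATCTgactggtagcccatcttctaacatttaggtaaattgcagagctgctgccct
The last sequence is the highest-scoring region in which nuclear receptor sites stood in tandem with 1 base between them, and capitals mark that tandem.
Member nearest Gm11353, chr13:26246918-26247217: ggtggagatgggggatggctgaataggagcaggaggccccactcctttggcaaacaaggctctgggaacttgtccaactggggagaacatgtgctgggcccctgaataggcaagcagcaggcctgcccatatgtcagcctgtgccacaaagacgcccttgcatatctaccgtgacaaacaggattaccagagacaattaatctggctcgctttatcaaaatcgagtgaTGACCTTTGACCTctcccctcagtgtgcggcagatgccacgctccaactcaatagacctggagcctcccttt

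The first question was how much of the desert chromatin open at E9.5 was no longer listed at E10.5. Of the 5454 E9.5 regions in deserts, 42.6% were E9.5-only (95% Wilson interval 41.3 to 43.9%, counting error only), against a background of 30.1% over all 41797 autosomal E9.5 regions. Nearer than 100 kb to a start, 28.2% of 36343 E9.5 regions were E9.5-only. Both this share and the background include promoter regions. With the limit moved to 50 kb, 41.0% of the E9.5 regions beyond it were E9.5-only. A larger share of the E10.5 list had no counterpart. Of the 8998 E10.5 desert regions, 65.2% (64.2 to 66.2%) were E10.5-only, against a background of 35.0% over all autosomal E10.5 regions. The deserts themselves covered 855 Mb, or 35.7% of the 2394 Mb of sequenced autosomal bases. They held 2.72 E9.5-only, 3.66 shared and 6.86 E10.5-only regions per Mb. Since the rule used the overlap and the distance, these shares describe the choice and were not tested. Because each stage had 1 merged list, no difference between stages carries a replicate error.

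Most of these regions lay outside genes. Of the 2323, 1626 (70.0%, 68.1 to 71.8%) overlapped no annotated gene, 548 (23.6%) lay in an intron of a long protein-coding gene, 38 (1.64%) touched a protein-coding exon and 111 (4.78%) overlapped a gene of another type only. Those inside genes included groups in introns of Wwox, Rad51l1 and Efna5. A start of any gene type, noncoding ones included, lay within 2.5 kb of 50 of them. The median distance to the nearest protein-coding start was 186 kb (181 to 195 kb), the farthest was 2398 kb away, and 235 lay at least 500 kb away (10.1%, 8.96 to 11.4%). Among E10.5-only desert regions the median distance was 228 kb and 16.7% lay at least 500 kb away, while shared desert regions had a median of 188 kb and 8.43%. The median distance of the E9.5-only regions was thus nearer to that of the shared class.

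The score of a region is the authors' value, 10 times the negative log10 of its best MACS p-value, and it grows with sequencing depth. The E9.5-only desert regions scored between 61.5 and 1685.47, with a median of 152.5 (148 to 157), and 28.5% scored under 120. Shared desert regions had a median of 196 and E10.5-only desert regions one of 166, on lists of unknown relative depth. When all autosomal E9.5 regions were split by score into 10 groups of equal size, the E9.5-only share of desert regions was 52.7% in the lowest group and 37.0% in the sixth. It then dropped to 17.1% in the eighth and to 1 of 26 in the highest. The score takes part in whether a region is listed at either stage, so these shares are a description. The median width was 899 bp, between 595 and 3567 bp, against 959 bp for shared and 888 bp for E10.5-only desert regions.

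The limits of the rule cut between neighbouring values. Just inside the distance limit were regions near E2f8 (100026 bp, score 205) and Cbln4 (100072 bp, score 277). Just outside were E9.5-only regions near Itih5 (99931 bp, score 180) and 4930544G11Rik (99988 bp, score 110). At the overlap limit, the region near Cdkn2b lay 39 bp and the region near Fgf12 47 bp from an E10.5 region, whereas regions near Fam172a and Eif4g2 counted as shared by 4 and 35 bp. In all, 132 (5.68%, 4.81 to 6.70%) had an E10.5 region within 1 kb of an edge. The median gap to the nearest E10.5 region was 21.1 kb, and 74.8% had one within 50 kb.

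Single E9.5-only desert regions reached high scores beside developmental and other genes. The 10 highest are named here by their nearest start. The strongest, with 1685.47, lay on chromosome 2 between Jag1, a Notch ligand, and Btbd3, 551 kb from the Btbd3 start, inside the noncoding model Gm14064. It was the only one in the top group of the E9.5 list and ranked 4178 there. Next came an intronic region of Pkhd1, with Tcfap2b, which encodes an AP-2 transcription factor, on its other side (score 1316.11, 107 kb). The region nearest Atp6v1h scored 1237.08 and stood 148 kb from any E10.5 region, the largest such gap among the 10. A region between Meis1, a homeodomain factor of the proximal limb, and Spred2 scored 1195.18. Sfrp2, which encodes a secreted modulator of Wnt signalling, had a region 183 kb away with a score of 1134.89, only 1.19 kb from an E10.5 region. Efnb2, the gene of an ephrin ligand, had one at 150 kb with a score of 1134.3. The remaining regions lay nearest Slc35b3 (1125.14), B130024G19Rik (1081.08), Zfp238 (1028.83) and Nr2f1 (994.36). The last of these encodes an orphan nuclear receptor of the COUP-TF family. The gene on the other side was Oprk1 for the Atp6v1h region, Gm10710 for Sfrp2, Gm1840 for Efnb2 and Ofcc1 for Slc35b3. For B130024G19Rik it was Gm10295, for Zfp238 1700016C15Rik and for Nr2f1 Arrdc3.

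GC content, which the rule did not use, differed from that of E10.5-only desert regions. The central bases of E9.5-only desert regions, 150 to either side of the middle one, had a median GC content of 48.2% (47.8 to 48.5%), the same as shared desert regions (48.2%) and well above E10.5-only desert regions (42.9%). All desert bases together had 39.6%. The difference from E10.5-only desert regions was 5.24 ± 0.893 percentage points (SD over 19 autosomes) and was positive on 19 of 19 autosomes, from 3.65 on chromosome 7 to 6.98 on chromosome 5. The difference from shared desert regions was −0.0262 ± 0.856 points, with 7 autosomes above and 7 below 0. E9.5-only regions 2.5 to 100 kb from a start were richer in GC still (median 51.8%). Relative to base composition, CpG dinucleotides had a median observed over expected ratio of 0.204 (0.196 to 0.211), against 0.195 (0.192 to 0.201) in E10.5-only and 0.253 in shared desert regions.

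**Figure D1:**
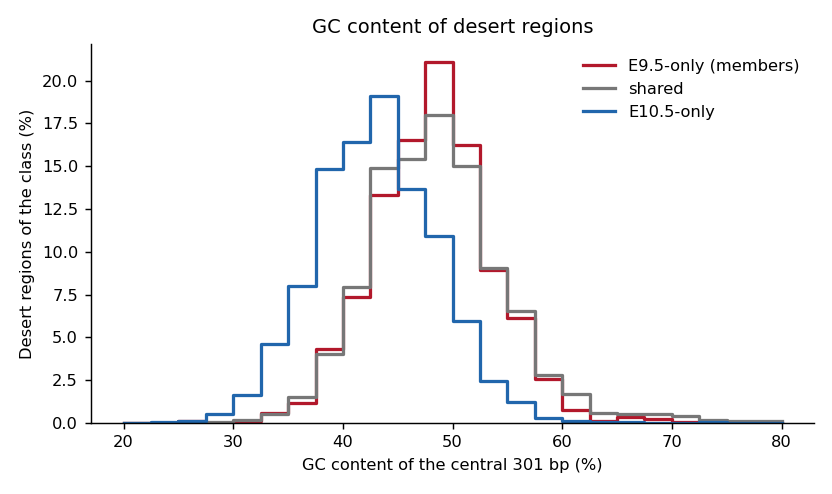
Distribution of GC content within 150 bp of the region centre, in bins of 2.5 percentage points, as the percentage of each desert class. The curves of E9.5-only (n = 2323) and shared regions (n = 3131) lie on each other around 48.2%, and the curve of E10.5-only regions (n = 5865) peaks lower, with a median of 42.9%.

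Few of these regions held sequence that occurs more than once. In 83.6% of the E9.5-only desert regions (82.0 to 85.0%), no 24-base word within 150 bp of the centre occurred elsewhere in the genome, against 82.8% of shared and 80.7% of E10.5-only desert regions. Only 5 had more than 50% of their words elsewhere.

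The chromosomes differed in how densely they carried these regions. Per Mb of desert, chromosome 15 had the fewest (1.74) and chromosome 13 the most (3.997), followed by chromosomes 11 (3.66) and 8 (3.60). The E9.5-only share of E9.5 desert regions ran from 32.6% on chromosome 16 to 49.3% on chromosome 11 (mean 42.0% ± 4.37, SD, n = 19 autosomes). Across the 19 autosomes, density went up with the GC content of the desert sequence (Pearson r = 0.638, Spearman rho = 0.677, and r = 0.645 without chromosomes 9 and 7). The same relation had r = 0.552 (rho = 0.458) for shared and r = −0.332 for E10.5-only regions. The chromosomes share libraries and depth, so these coefficients are descriptions. When density was instead taken per Mb of whole chromosome against whole-chromosome GC content, the sign turned (r = −0.139).

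Along the chromosomes, E9.5-only desert regions were mostly scattered, with a few dense groups. Joined when neighbouring centres were no more than 50 kb apart, 1313 of 2323 (56.5%) stood alone and 518 (22.3%) were in groups of at least 3. Of the more numerous shared desert regions 49.1% stood alone and 26.2% were in such groups, and of the E10.5-only regions 41.3% and 31.6%, classes that were also denser per Mb of desert. The largest group had 15 regions, against 10 in the far larger E10.5-only class and 16 in the shared class. The median gap between neighbours was 239 kb (quartiles 43.0 and 1081 kb). Among 1 Mb windows, 113 held at least 5 and 15 held at least 10 of them. A shared region lay within 50 kb of 49.3% (47.3 to 51.4%), whereas 36.6% (35.4 to 37.8%) of E10.5-only desert regions had one that close, fewer than among the E9.5-only regions.

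The densest group lay on chromosome 18 within the gene model 1700011I03Rik, of no function known here. It packed 15 E9.5-only regions into 67.4 kb, with scores from 96.8 to 635.09 (median 175) and a median of 3.91 kb between neighbouring centres. The same span held 0 shared regions and 1 E10.5 region. Those 15 were wide, with a median of 1397 bp and a maximum of 3567 bp, and together covered 26.1 kb. Of the 15, only 9 had no 24-base word elsewhere in the genome, a smaller share than the 83.6% of all E9.5-only desert regions.

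The other 9 of the 10 largest groups lay on chromosomes 12, 8, 4, 11, 5 and 17. Downstream of Zfp36l1, which encodes an RNA-binding protein that destabilises AU-rich transcripts, 10 regions spanned 83.96 kb without any gene. Between Fam92b and Gse1 on chromosome 8, 10 regions spanned 85.0 kb, and 7 more spanned 75.3 kb beyond Foxc2, a forkhead gene of paraxial mesoderm and vessels. Both of these groups overlapped the long model Gm20388, had a median GC content of 58.8% and 57.8%, and contained 5 shared and 0 E10.5-only regions each. Within the introns of Wwox, 8 regions spanned 131 kb with 0 shared and 0 E10.5-only regions among them. Groups of 7 also lay between Chd7, a chromatin remodeller gene, and Clvs1, between Sox9 and Slc39a11, and between Chek2 and Pitpnb. A group of 6 lay between Nphp4 and Ajap1. Finally, 5 regions stood in 32.1 kb of intronic sequence of Efna5, an ephrin gene, with 0 regions of the other classes.

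The flanking genes were described by the interval between the neighbouring protein-coding starts. The 2323 regions fell into 964 of the 1733 intervals that held a desert region of either list. Of these, 451 held 1 of them, 385 held 2 to 4, and 128 held at least 5, with 871 regions (37.5%) in the last group. An interval had more E9.5-only than E10.5-only regions in 324 cases and fewer in 497 of these 964, and in 185 it had no E10.5-only region at all. In the other 779 both E9.5-only and E10.5-only regions were present. A further 635 intervals had an E10.5-only region and no E9.5-only one. The median interval was 709 kb long over the E9.5-only regions and 876 kb over the E10.5-only regions.

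The 10 most populated intervals fell into those where E9.5-only regions dominated and those where both stages had many of their own. The interval from Rad51l1 to Zfp36l1 on chromosome 12, 799 kb long, was the richest, with 20 E9.5-only, 17 shared and 2 E10.5-only regions. Their scores ran from 83.7 to 760.76 around a median of 196, and 6 lay in introns of Rad51l1, a recombination gene. They were spread from 119 to 609 kb downstream of the Zfp36l1 start, and shared regions lay among them over the same stretch. Sox9 to Slc39a11 on chromosome 11 held 15, 9 and 2 regions in the same order, with a median score of 206. Nphp4 to Ajap1 held 13, 6 and 2, and Wwox to Maf held 14, 3 and 6, of which 12 E9.5-only regions were in Wwox introns. Maf encodes a basic leucine zipper factor.

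**Figure D2:**
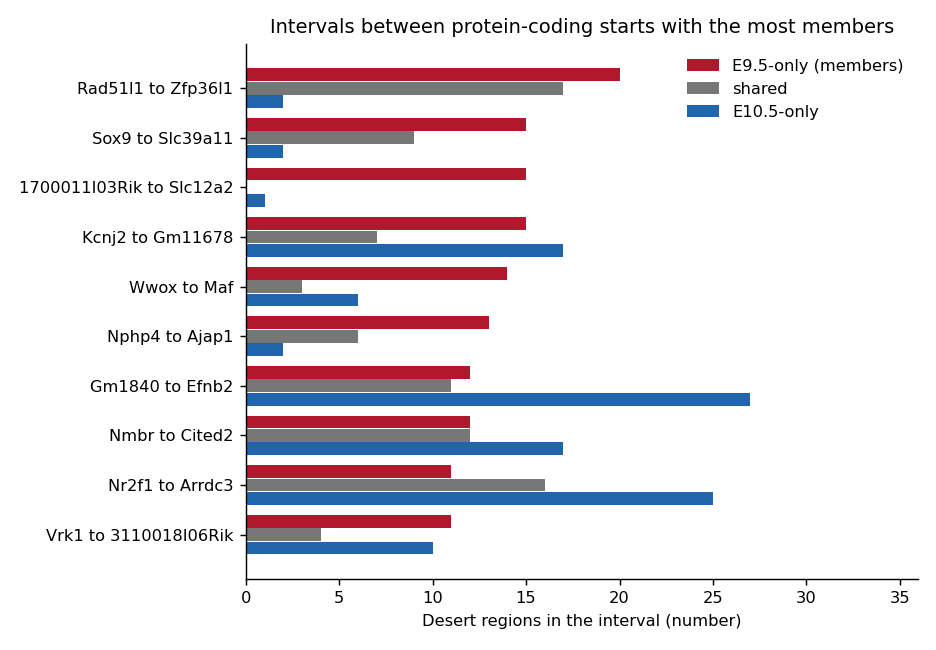
Number of desert regions of each class in the 10 intervals between neighbouring protein-coding starts with the most E9.5-only regions. In the Rad51l1 to Zfp36l1, Sox9 to Slc39a11 and Nphp4 to Ajap1 intervals 2 E10.5-only regions face 20, 15 and 13 E9.5-only regions, whereas the intervals beside Efnb2, Cited2 and Nr2f1 hold more E10.5-only regions.

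**Figure D3:**
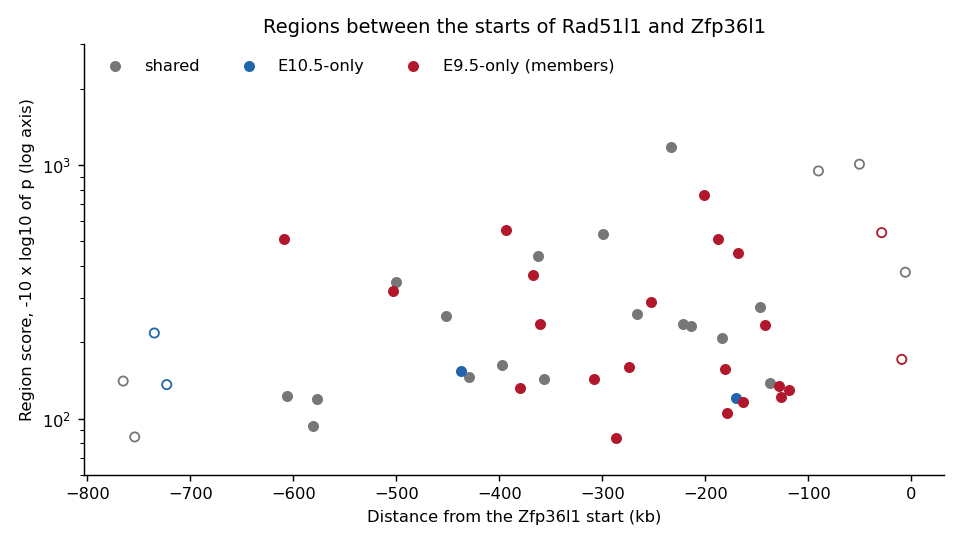
Score of each accessible region (log axis) against its distance from the Zfp36l1 start in the Rad51l1 to Zfp36l1 interval, one point per region, with filled points at least 100 kb from a protein-coding start, open points nearer, and shared regions at their E9.5 score. The 20 filled E9.5-only points range from 83.7 to 760.76 and are interspersed with 17 shared points.

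Other crowded intervals held many E9.5-only and many E10.5-only regions. Kcnj2 to Gm11678 on chromosome 11, which begins at a potassium channel gene, held 15 E9.5-only and 17 E10.5-only regions with 7 shared. Gm1840 to Efnb2 held 12 and 27, and Nmbr to Cited2, a transcriptional coregulator gene, held 12 and 17. Nr2f1 to Arrdc3 held 11 and 25, and Vrk1 to 3110018I06Rik 11 and 10. Because the members of an interval share their neighbourhood, these counts are not independent observations of a stage.

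Among genes of limb development, E9.5-only desert regions were found beside transcription factors of early patterning. Of the 46 listed limb genes, 14 were the nearest start of 34 such regions (1.46%, 1.05 to 2.04%), against 1.18% of shared and 1.36% of E10.5-only desert regions, while 0.670% of desert bases lay nearest to them. All 3 classes were thus denser beside limb genes than desert bases alone, and the intervals of the classes overlapped. The order of the classes turned when either flanking start was counted in place of the nearest, with 2.41% of E9.5-only, 2.71% of shared and 2.57% of E10.5-only regions. Irx3, an Iroquois homeobox gene, had 6, with scores of 317, 189, 137, 133, 122 and 92.3, beside 3 E10.5-only regions. Tbx3, a T-box gene of limb and flank, had 5, all upstream of its start, with scores of 658, 399, 154, 125 and 90.8, beside 2 E10.5-only regions. Gli3, a transcription factor of the hedgehog pathway, had 5 with a median score of 188 beside 8 E10.5-only regions. Bmp2, a BMP ligand gene, had 4 against 17. Only 3 listed limb genes had more E9.5-only than E10.5-only regions nearest them and 13 had fewer.

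Cartilage and ridge genes contributed few regions apart from Sox9. Sox9, the transcription factor gene required for chondrogenic condensation, was nearest to 8 E9.5-only, 3 shared and 3 E10.5-only regions. The 8 scored 620, 391, 275, 257, 254, 247, 206 and 170, none of them weak by the limit of 120, at 101 to 363 kb from the start, with 7 downstream and 1 upstream. The list of 10 cartilage genes had 14 regions in all (0.603%, 0.359 to 1.01%), against 0.607% of shared and 0.341% of E10.5-only desert regions, and with either flanking start 1.33%, 1.09% and 0.580%. Sox5 had 4 beside 6 E10.5-only regions. Runx2 had 1 beside 7, and Sox6 had 1 beside 4 E10.5-only and 12 shared regions. Of the 20 genes of limb ectoderm and ridge, only Sp8, Fgf9 and Grhl2 had any, 5 in total. Sp8, a zinc finger gene of the apical ectodermal ridge that is also active in the nervous system, had 3 upstream regions at 185, 187 and 195 kb, scored at 511, 224 and 710, with 3 shared and 0 E10.5-only regions.

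Genes of neural tube and somites had a larger share of the regions of all 3 desert classes than of desert bases. The 53 matched neural genes were nearest to 53 of them (2.28%, 1.75 to 2.97%), against 1.76% of shared, 1.60% of E10.5-only regions and 1.21% of desert bases. The 32 somite and muscle genes had 23 (0.990%, 0.661 to 1.48%), against 0.735%, 0.494% and 0.243%. The intervals of the 3 classes overlapped for both lists. Only 6 neural genes had more E9.5-only than E10.5-only regions nearest them and 13 had fewer. Among the somite and muscle genes 3 had more and 5 had fewer. Nr2f1 had 12, from 103.93 to 994.36, beside 13 E10.5-only regions, and its paralogue Nr2f2 had 4 beside 2. Sox2, an SRY-related gene of neural progenitors, had 5 beside 3 E10.5-only regions, with a top score of 961 and the others between 106 and 199. Nkx6-1, a homeobox gene of the ventral neural tube, had 4 beside 1 E10.5-only region. Foxc2 had 7, scored from 80.4 to 427 around a median of 231, beside 1 E10.5-only region. Eya1 and Meox2 had 3 each, beside 2 and 4 E10.5-only regions. Pax1, a gene of the sclerotome, also had 3, which scored at most 102, beside 7 E10.5-only regions. The part of the trunk tissue kept at E9.5 in these counts was not tested.

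The remaining lists held few regions, apart from adhesion and axon guidance. The 20 genes of body wall, kidney and heart had 10 regions (0.430%, 0.234 to 0.791%, against 0.383% of shared and 0.512% of E10.5-only regions), among them 3 beside Emx2 and 2 beside Isl1. Emx2 had 2 E10.5-only regions and Isl1 had 5. Blood and vessel genes, 27 matched, had 11 (0.474%, 0.265 to 0.846%, against 0.639% and 0.426%), of which 4 lay beside Ets1. Ets1 also had 10 shared and 6 E10.5-only regions. Genes of cell adhesion and axon guidance, which often lie in the largest deserts, had 113 (4.86%, 4.06 to 5.82%). That was above the 3.99% (3.36 to 4.74%) of shared regions, with overlapping intervals, and below the 6.53% (5.93 to 7.19%) of E10.5-only regions and the 8.03% of desert bases, and 51 of these genes had fewer E9.5-only than E10.5-only regions against 5 with more. Robo1, a Slit receptor gene, had 15 E9.5-only regions, the most of any listed gene, beside 20 E10.5-only regions. Over all lists 263 regions (11.3%) lay nearest a listed gene, and the 2323 had 1164 different nearest genes, so most neighbours were in no list.

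Short motifs within 150 bp of the centre differed in frequency between the E9.5-only desert regions and both other classes. Among 23 motifs searched on both strands, AGGTCA was found in 32.5% of them (30.7 to 34.5%), in 24.8% (23.4 to 26.4%) of shared and in 20.3% (19.3 to 21.4%) of E10.5-only desert regions, and in 20.6% of all autosomal E9.5 regions. The excess over shared regions was 6.99 ± 5.05 points (SD over 19 autosomes), positive on 18 of 19, and the excess over E10.5-only regions was positive on 19 of 19. AGATAA was found in 20.4% (18.8 to 22.1%), against 13.9% (12.7 to 15.1%) of shared, 13.7% (12.8 to 14.6%) of E10.5-only and 4372 of 41797 (10.46%) of all E9.5 regions. Its excess over shared regions was 6.73 ± 2.90 points and positive on 19 of 19 autosomes. With the comparison classes weighted to the GC content of the E9.5-only regions, the AGATAA share was 14.0% in shared and 9.54% in E10.5-only regions, and the AGGTCA share was 25.2% and 20.7%. A match is a description of the letters and does not show that a factor was bound.

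Several further motifs leaned the same way. AACAATG, a core bound by SOX factors, was present in 8.39% (7.33 to 9.59%) against 5.43% of shared, 5.73% of E10.5-only and 3.93% of all E9.5 regions, and was higher than in shared regions on 16 of 19 autosomes. TGTTTAC, a forkhead core, was present in 6.63% (5.69 to 7.71%) against 4.60% and 5.06% (all E9.5 regions 3.46%), and ATGCAAAT, the octamer bound by POU factors, in 2.93% (2.32 to 3.69%) against 1.85% and 1.77% (all E9.5 regions 1.39%). For ATGCAAAT the interval of shared regions (1.44 to 2.39%) overlapped that of E9.5-only regions. Within 75 bp of the centre its shares were 1.16% in E9.5-only and 0.958% in shared regions. The forkhead excess over shared regions, 1.99 ± 2.96 points, was smaller than the SD between autosomes and was positive on 14 of 19.

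A further 3 motifs were most frequent in E10.5-only desert regions. TTTATNG, a core bound by posterior HOX proteins, was in 14.4% (13.1 to 15.9%) of E9.5-only, 17.5% (16.2 to 18.8%) of shared and 25.4% (24.3 to 26.5%) of E10.5-only desert regions, and in 9.40% of all E9.5 regions. Its difference from shared regions, −2.50 ± 4.79 points over 19 autosomes, was smaller than the SD between autosomes and was below 0 on 16 of 19. This SD describes single autosomes and is not the error of their mean. TAATTA, a general homeodomain core, was in 9.26%, 10.7% and 18.7% (all E9.5 regions 5.15%). CATATG, an E-box, followed the same order with 5.12%, 6.32% and 9.94% (all E9.5 regions 3.54%). For TAATTA and CATATG the intervals of E9.5-only and shared regions overlapped. These letters are rich in A and T, and at matched GC content the E10.5-only shares came down to 19.5%, 14.4% and 7.61%, still above those of the E9.5-only regions.

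The other 15 motifs are given in the order E9.5-only, shared and E10.5-only desert regions. TGACAG, a core bound by MEIS proteins, was found in 30.8%, 27.4% and 25.6% (all E9.5 regions 21.6%), and GGAATGT, bound by TEAD factors, in 8.05%, 6.58% and 6.5% (all E9.5 regions 4.78%). The E-boxes CAGCTG and CAGATG were found in 28.5%, 27.5% and 21.7% (all E9.5 regions 23.6%) and in 33.6%, 34.0% and 35.2% (all E9.5 regions 23.2%). TGATTNAT, of PBX and HOX pairs, was in 11.6%, 11.1% and 11.9% (all E9.5 regions 4.99%), TGTGGTT, of RUNX factors, in 5.29%, 6.16% and 8.56% (all E9.5 regions 4.58%), and TTGGCA, of NFI factors, in 16.3%, 16.2% and 18.8% (all E9.5 regions 12.8%). The order of these motifs differed, and TGTGGTT was most frequent in E10.5-only regions. AGGNGGC, part of the CTCF motif, was in 19.8%, 24.5% and 15.5% (all E9.5 regions 35.1%), and GCCNNNGGC, of AP-2 factors, in 9.38%, 9.71% and 6.36% (all E9.5 regions 18.9%). GGCGCC was in 2.2%, 3.61% and 1.21% (all E9.5 regions 12.9%), CCGGAAG, of ETS factors, in 1.21%, 1.85% and 1.09% (all E9.5 regions 5.82%), and GTTGCCA, of RFX factors, in 4.74%, 5.3% and 4.54% (all E9.5 regions 4.29%). TGANTCA, which is close to the AP-1 site, was in 10.504%, 8.75% and 10.4% (all E9.5 regions 6.98%). GACCACCCA, of GLI factors, and the SMAD palindrome GTCTAGAC were rare, in 0.732%, 0.511% and 0.273% (all E9.5 regions 0.421%) and in 0.387%, 0.224% and 0.188% (all E9.5 regions 0.289%). At matched GC content the order of E9.5-only and E10.5-only regions turned for 6 of the 15. The E10.5-only share became 22.8% for AGGNGGC, 10.06% for GCCNNNGGC, 2.79% for GGCGCC, 2.17% for CCGGAAG and 0.970% for GACCACCCA, each then above the E9.5-only share, and 8.41% for TGATTNAT, then below it. The weighted shares have no interval, and GACCACCCA was in only 17 E9.5-only and 16 E10.5-only regions. Few E10.5-only regions had a high GC content, with 1 between 65 and 67.5% against 8 E9.5-only regions, so single regions can weigh heavily for rare motifs.

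**Figure D4:**
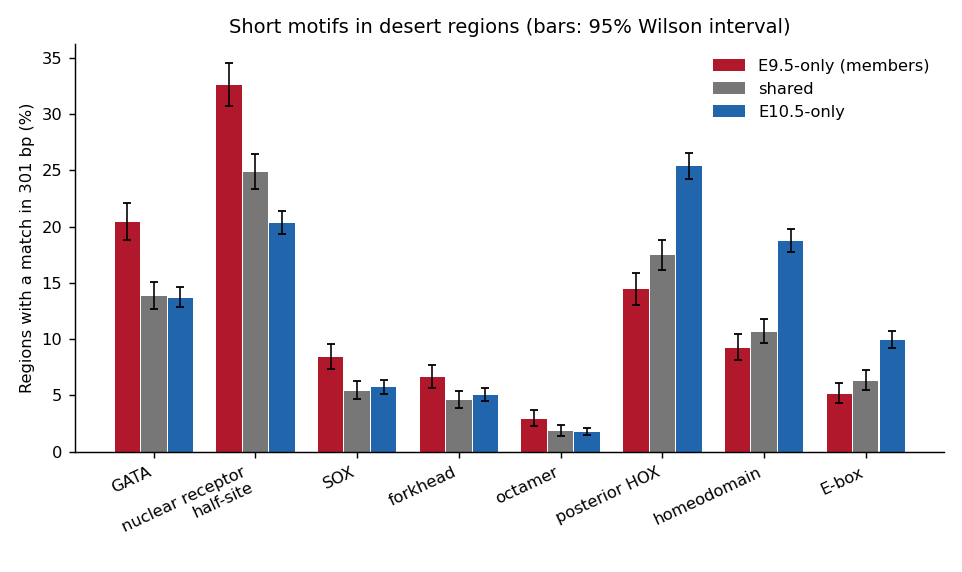
Percentage of desert regions with at least 1 match to each motif within 150 bp of the centre, on either strand, with 95% Wilson intervals as error bars, for E9.5-only, shared and E10.5-only regions. The GATA and nuclear receptor motifs are highest in E9.5-only regions (20.4% and 32.5%), and the posterior HOX motif is highest in E10.5-only regions (25.4%).

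The position of the matches differed between the motifs. AGGTCA rose to a sharp peak at the centre of E9.5-only desert regions, with 15.7 matches per 100 regions per 100 bp within 100 bp of the centre and 6.09 at 500 to 1000 bp, a ratio of 2.58. The peak was lower in shared (ratio 1.61) and E10.5-only regions (1.52), and the outer levels of the classes were similar (6.22 and 5.38). AACAATG also peaked at the centre of E9.5-only regions only, with 3.14 against 2.05 at the outer positions, whereas shared and E10.5-only regions had 1.82 and 1.83 at the centre. AGATAA had no peak in E9.5-only regions, at 7.66 in the centre and 7.29 outside. In the other classes it dipped at the centre, to 5.05 against 7.19 outside in shared and to 4.65 against 8.65 in E10.5-only regions. TTTATNG dipped at the centre of E9.5-only regions (5.62 against 6.71) and peaked in E10.5-only regions (10.7 against 7.81).

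**Figure D5:**
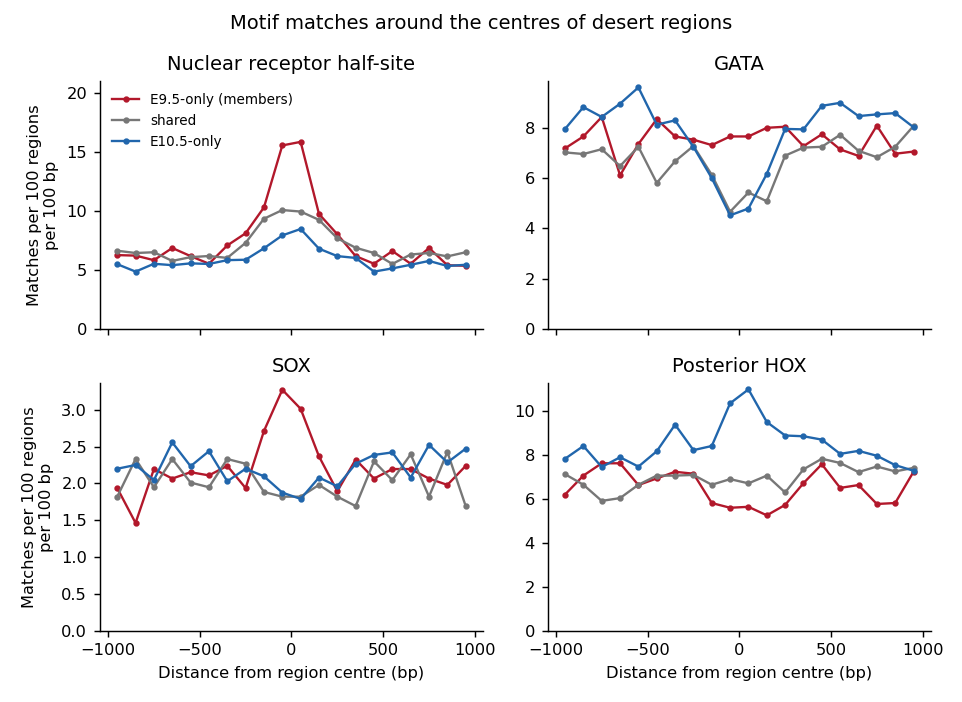
Motif matches per 100 regions in 100 bp bins by distance from the region centre, for 4 motifs and the 3 desert classes. Within 100 bp of the centre the nuclear receptor motif averages 15.7 in E9.5-only regions and the SOX motif 3.14, the GATA motif is level in E9.5-only regions and dips in the others, and the posterior HOX motif averages 10.7 in E10.5-only regions.

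AGGTCA and AGATAA were found in strong and weak E9.5-only desert regions. With the class split by score into 3 groups of equal size, AGGTCA was in 31.4%, 35.8% and 30.5% from the lowest to the highest group, and AGATAA in 21.2%, 21.3% and 18.7%. Each of these shares exceeded that of every score group of the shared class, where AGGTCA was at most 26.1% and AGATAA at most 14.1%. AACAATG was less frequent in the lowest group (6.07%) than in the middle and highest (9.56% and 9.55%), with overlapping intervals. Both AGATAA and AGGTCA were found in 162 regions (6.97%, 6.01 to 8.08%), against 4.12% of shared and 2.63% of E10.5-only desert regions.

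The motif shares were similar in E9.5-only regions nearer to genes. E9.5-only regions 2.5 to 100 kb from a start had AGGTCA in 30.3% (29.3 to 31.3%) and AGATAA in 16.1%, which became 31.5% and 19.6% at the GC content of the desert regions. The E9.5-only desert regions had 32.5% and 20.4%.

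Nuclear receptors often bind pairs of such sites, so tandem copies were looked for, a search chosen after the AGGTCA shares had been seen. A site could be spelled AGGTCA or GGGTCA, and likewise AGTTCA as well as the spelling GGTTCA. A pair stood in the same orientation with 0 to 8 bases between. Pairs with 1 base between were found in 40 E9.5-only desert regions (1.72%, 1.27 to 2.34%), against 18 of 3131 shared (0.575%, 0.364 to 0.907%) and 14 of 5865 E10.5-only regions (0.239%, 0.142 to 0.400%). All E9.5 regions together had 0.627%. Spacing by 1 base was the most frequent of the 9 spacings in the E9.5-only desert regions, the next being 2 bases with 18 regions (0.775%). It also led in all E9.5 regions (262, against 139 for 2 bases). In E9.5-only regions nearer to genes it had 101, against 55 for 5 bases. In shared desert regions 1 and 2 bases tied at 18. Pairs with 2 bases between were also rarer in E10.5-only desert regions (0.0853%), so the excess was not limited to 1 base. The difference from shared regions was 1.22 ± 1.56 points and positive on 15 of 19 autosomes, which is smaller than its spread between chromosomes. With AGGTCA alone as the spelling of both sites, the shares were 0.560%, 0.0639% and 0.0341%. E9.5-only regions nearer to genes had 1.24% (1.02 to 1.504%). The 40 included the region near Gm11353 printed above (score 918.63), one near Tcerg1l (365.67), and regions beside Pax3, a gene of dorsal neural tube and somite, Twist1 and Barhl2.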

How the data were processed

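The authors aligned ATAC-seq reads to mm9 with Bowtie 1.1.0 and kept only uniquely matching reads. They called regions per replicate with MACS 1.4, and merged both replicates of a stage by MSPC. The deposited score is the negative log10, times 10, of the smallest MACS p-value that any overlapping region of either replicate had. It is not scaled for depth, and read totals were not given in the sources used here. The smallest score the combining step admits is 60. Members and lists were chosen with earlier results of these data known.

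Regions were compared by overlap of at least 1 bp, and distances ran from region centres to protein-coding transcript starts of GENCODE vM1. GC content, motifs and 24-base words were read from NCBIM37 within 150 bp of the region centre, with Python 3.11.15, numpy 2.4.6 and pandas 2.3.3, after the steps were tested on simulated data. Intervals are 95% Wilson intervals for shares and order-statistic intervals for medians, and cover counting error only, with regions taken as independent. With 1 list per stage no p-value was computed.

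Named were the 10 fullest intervals, the 10 highest-scoring members, the 10 largest groups, up to 4 genes in each of 8 gene lists by members nearest, and regions beside the limits. Other genes of a list were named after their values were seen, as were the members with tandem sites. Sox1, Gfi1 and Plxna4a matched no symbol.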

Additional observations from a re-analysis of the deposited data

How the results depend on the processing

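No paired analysis was possible because the replicates of a stage were deposited as a single merged list, and leaving out a replicate was not run for the same reason. Leaving out each autosome in turn left the median GC content at 48.2% and its differences from shared and E10.5-only regions at 0 and 5.32 points. The main values that moved beyond their interval or spread, or by over 1.5 times for counts, are given here. The number of regions was 3880 at 50 kb from a start, 1078 at 200 kb, 1366 with starts of all gene types and 473 in the higher-scoring 50% of the E9.5 list. The E9.5-only share of E9.5 desert regions was 41.0% at 50 kb, 45.4% with a reciprocal overlap of 50%, 40.2% with no E10.5 region within 1 kb, 39.6% at a score of at least 120 and 28.8% in the higher-scoring 50%. The intergenic share was 74.8% with protein-coding genes only. Median GC content was 45.3% over whole regions and 45.1% within 500 bp of the centre. Its difference from E10.5-only regions was then 4.35 and 4.30 points, and 6.31 points in the higher-scoring 50%, where the difference from shared regions was −0.997. The correlation of density with GC content reversed to −0.139 when both were taken over whole chromosomes. Groups of at least 3 held 195 regions when joined within 20 kb, and 71 windows of 500 kb held at least 5. With either flanking start, the shares were 2.41% for limb, 1.33% for cartilage, 0.517% for ectoderm and ridge, 3.70% for neural, 1.03% for body wall, kidney and heart, 0.861% for blood and vessel and 8.09% for adhesion and axon genes. Differences that reversed with it were limb against shared (−0.304 points) and E10.5-only (−0.164), cartilage against shared (0.249), and body wall against E10.5-only regions (0.0613). The AGATAA excess was 3.35 points over shared regions within 75 bp of the centre and 10.9 over E10.5-only regions at matched GC content. The cause of these changes was not tested. The tandem-site spelling and the omission of regions within 1 kb of an E10.5 region were chosen after seeing the data. The depth of the lists is unknown, so absence from a list does not show that a region was closed.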
